A study of Mus musculus with 6 samples.

Results

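The tripartite motif (Trim) genes were examined in neutrophils sorted from the peripheral blood (PB) of mice with ligature-induced periodontitis (LIP). A gene was counted as a Trim gene if its name was Trim followed by a number and at most 1 small letter and if it was listed as protein coding, which held for 50 of the 29097 genes in the table. Of these, 27 reached a mean FPKM (fragments normalized to gene length and sequencing depth) of 1 over the 6 libraries and were tested, and 23 did not. *Trim40* and *Trim69* carry such names but were listed under other transcript types and were left out.

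TRIM proteins carry a RING finger, B-boxes and a coiled coil, and most act as E3 ubiquitin ligases, which pass ubiquitin from an E2 enzyme to a chosen protein. A domain at the carboxy-terminal end, often PRY-SPRY, recognizes the target. Many *Trim* genes are induced by interferons, and their products either restrict viruses directly or tune the sensing of foreign nucleic acid and NF-kappaB signalling.

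All mice were wild-type C57BL/6 males aged 8 weeks. In the LIP group, which the labels call Lig, silk ligatures were tied around the second molars of both jaws for 14 d, and the Ctrl mice had no ligature. CD45+CD11b+Ly6G+ cells were sorted, and each of the 3 Ctrl and 3 LIP libraries was made by Smart-seq2, which amplifies full-length cDNA by PCR without molecular identifiers, from a pool of 5 mice. The comparison of LIP with Ctrl asks how PB neutrophils differ in periodontitis. A pool averages over its mice, so the spread between libraries is one between pools.

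The libraries held 52186555 to 57262379 counted reads. Levels are given as CPM, counts scaled to the library total after TMM normalization, and differences as log2 fold changes of LIP over Ctrl from edgeR's quasi-likelihood test with Benjamini-Hochberg adjustment over the 10440 genes tested. Marker RNA of several blood cell types differed between the groups. The summed CPM of 20 mature neutrophil markers was 15480 to 17490 in Ctrl and 58990 to 63720 in LIP (3.66-fold), and all 20 were higher. The 12 B cell markers summed to 7637 to 8195 CPM in Ctrl and 1705 to 1843 in LIP, the 12 T cell markers to 880 to 1006 and 229 to 259, and the erythroid markers to 129800 to 138000 and 17550 to 18290. All tested markers of these 3 lists were lower, and no marker in any list was at 0 in all libraries. Monocyte and platelet marker sums were higher in LIP, at 2631 to 2822 against 1415 to 1723 CPM and at 2536 to 3011 against 986 to 1188 CPM. The 8 natural killer cell markers summed to 496.4 to 531.7 CPM in LIP and 388.5 to 448 in Ctrl, with 4 called higher and 0 lower with TMM. In such bulk samples, fewer cells of a type and less RNA per cell cannot be told apart. Scaling the libraries on the 20 neutrophil markers in place of TMM moved the median of all genes by -1.73 on the log2 scale, to -1.82, and scaling on library totals moved it by -0.32. Of all genes, 2766 were higher and 2835 lower with TMM, 1919 and 4146 with library totals, and 93 and 9044 with the neutrophil markers.

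Of the 27 tested *Trim* genes, 16 passed an adjusted p of 0.05, or 59.3%, where 53.6% of all genes tested did. With TMM, 7 were higher in LIP (*Trim30b*, *Trim30d*, *Trim30a*, *Trim12c*, *Trim3*, *Trim11* and *Trim12a*) and 9 lower (*Trim10*, *Trim7*, *Trim44*, *Trim35*, *Trim28*, *Trim27*, *Trim14*, *Trim34a* and *Trim59*), while with scaling on the neutrophil markers 0 were higher and 21 lower. Of all genes tested, 26.5% were higher and 27.2% lower with TMM. The 3 libraries of each group did not overlap in CPM for 18 of the 27 genes, or 66.7%, against 63.4% of all genes tested. The median log2 fold change of the 27 genes was 0.04, and that of all genes tested was -0.09. The distance from the background depended on the limit on FPKM. Fitted without a limit, 16 of all 50 *Trim* genes passed, beside 15.9% of all genes. At a mean FPKM of at least 5, 14 of 16 passed, where 1768 of all 5328 genes were higher and 1869 lower. With TMM and the limit used for testing, the family as a whole stood close to the background in its number of changes. Its members spread in both directions. The plot of changes by role shows that spread.

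**Figure D1:**
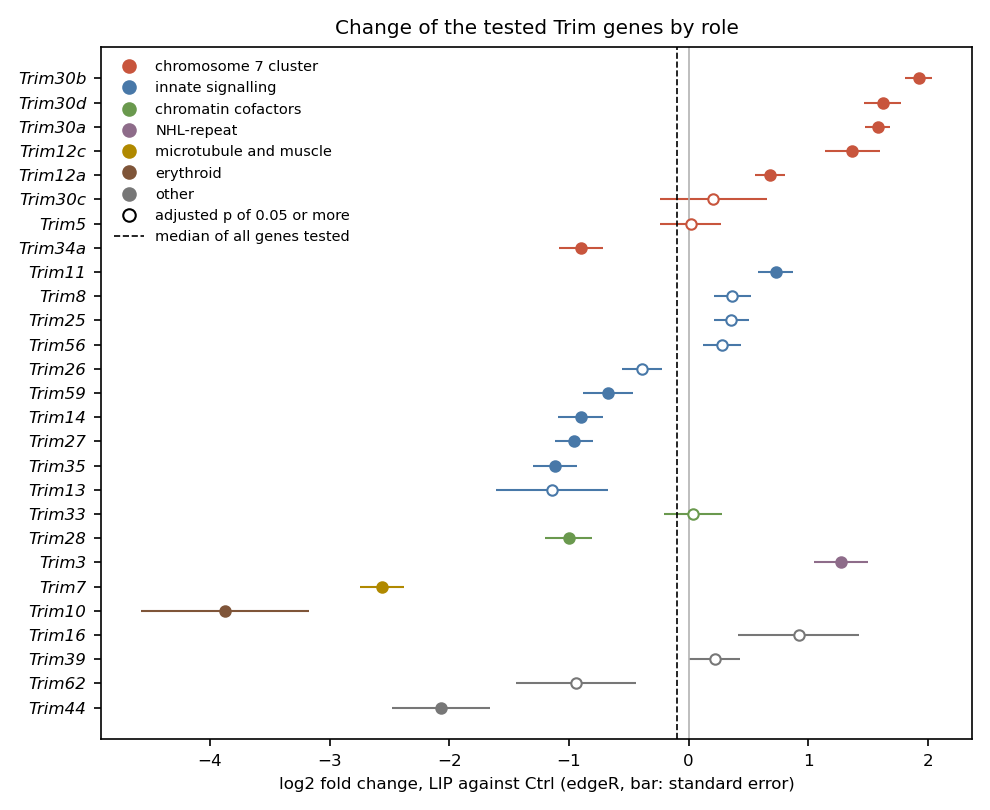
Log2 fold change of LIP over Ctrl (horizontal axis) with its standard error for the 27 tested *Trim* genes, grouped and coloured by role. Filled points passed an adjusted p of 0.05 in edgeR. With TMM, 5 of the 8 tested genes of the chromosome 7 cluster lie to the right of the median of all genes with filled points, and with scaling on neutrophil markers 0 *Trim* genes were higher.

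Compared per gene length, *Trim30a* had the highest level in both groups. In Ctrl libraries it stood at 34.3 FPKM ± 2.49 (SD, n = 3), followed by *Trim25* at 24.0 ± 2.73, *Trim8* at 23.8 ± 4.40, *Trim30b* at 17.8 ± 2.34 and *Trim35* at 16.7 ± 3.04. The lowest *Trim30a* library (31.6) lay above the highest *Trim25* library (26.8), whereas the values of *Trim25* and *Trim8* overlapped, as did those of *Trim30b* and *Trim35*. In LIP libraries the order was *Trim30a* at 82.9 FPKM ± 5.42, *Trim30b* at 54.4 ± 3.54, *Trim30d* at 35.4 ± 1.56, *Trim25* at 24.8 ± 4.26 and *Trim8* at 24.7 ± 2.87. *Trim30a*, *Trim30b* and *Trim30d* did not overlap with each other or with *Trim25* there, and *Trim25* and *Trim8* again overlapped. *Trim30b* was thus in rank 4 in Ctrl and 2 in LIP, and *Trim30d* in rank 8 and 3. The 23 untested members made up 2.77% of the summed mean FPKM of the family.

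A group of 10 *Trim* genes lies together on chromosome 7, from *Trim6* to *Trim30d* within 289.1 kb. *Trim5*, *Trim12a* and *Trim12c* are the mouse relatives of the retroviral restriction factor TRIM5, and the *Trim30* genes form a rodent group whose best known member, *Trim30a*, lowers Toll-like receptor signalling to NF-kappaB. With TMM, 5 of the 8 tested genes of the cluster rose and 1 fell, with a median log2 fold change of 1.02, while under the neutrophil scaling all 5 of these lost the call or turned to lower. In all, 75% of the 8 passed with TMM, beside 53.6% of all genes tested (26.5% higher and 27.2% lower). The summed level of the 10 genes went from 466 CPM ± 20.6 in Ctrl to 1269 CPM ± 73.9 in LIP (SD over the 3 libraries), or 2.72-fold. The cluster supplied 35.6% ± 0.382 of the summed CPM of all 50 *Trim* genes in Ctrl and 63.9% ± 2.26 in LIP. That share does not depend on how the libraries were scaled. All *Trim* genes together summed to 1310 CPM ± 70.7 and 1984 ± 45.1.

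The *Trim30* genes carried most of this difference. *Trim30b* (chromosome 7, 104355382 to 104369884, minus strand, GRCm38) stood at 145.5, 115.9 and 127.5 CPM in the Ctrl libraries and at 472.9, 526.8 and 475.0 CPM in the LIP libraries. *Trim30a* (104409025 to 104465193) stood at 124.0, 140.5 and 146.1 CPM in Ctrl and at 390.8, 438.0 and 398.1 CPM in LIP. *Trim30d* (104470014 to 104507849) stood at 62.1, 41.2 and 52.4 CPM in Ctrl and at 158.6, 167.0 and 153.4 CPM in LIP. For each of the 3 genes the lowest LIP library was above 2 times the highest Ctrl library. The log2 fold change was 1.92 with a standard error (SE) of 0.11 for *Trim30b* (edgeR, adjusted p = 5.42e-07), 1.58 with an SE of 0.11 for *Trim30a* (adjusted p = 1.24e-06) and 1.62 with an SE of 0.15 for *Trim30d* (adjusted p = 1.1e-05). Relative to the median of all genes these were 2.02, 1.67 and 1.72 with TMM and 2.01, 1.67 and 1.71 with the neutrophil scaling. Such values are alike by construction, since a scaling shifts all genes by nearly the same amount. With TMM the 3 genes exceeded the log2 fold changes of 97.8%, 94.3% and 94.8% of all genes tested. The neutrophil markers had a median log2 fold change of 1.85 beside them. Scaled on those markers, the log2 fold changes of *Trim30b*, *Trim30a* and *Trim30d* were 0.19, -0.15 and -0.11 (edgeR, adjusted p = 0.15, 0.173 and 0.524). With that scaling none of the 3 genes passed.

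The fourth gene of this group, *Trim30c*, which lies between *Trim30b* and *Trim30a*, was far lower, at a mean of 2.09 FPKM. Its groups overlapped and its log2 fold change was 0.21 with an SE of 0.45 (edgeR, adjusted p = 0.717), a sign that turned with scaling on library totals and on the neutrophil markers. Reads of near-identical genes can be assigned to either copy. Of the stretches of 100 bases in the transcripts of *Trim30a*, 4.41% also occur in another gene, all of them in *Trim30d*, and for *Trim30b* and *Trim30c* none do. The values of the *Trim30* genes therefore rest mostly on sequence that tells them apart. The 4 genes together summed to 322 CPM ± 19.0 in Ctrl and 1064 ± 63.1 in LIP, or 3.31-fold.

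**Figure D2:**
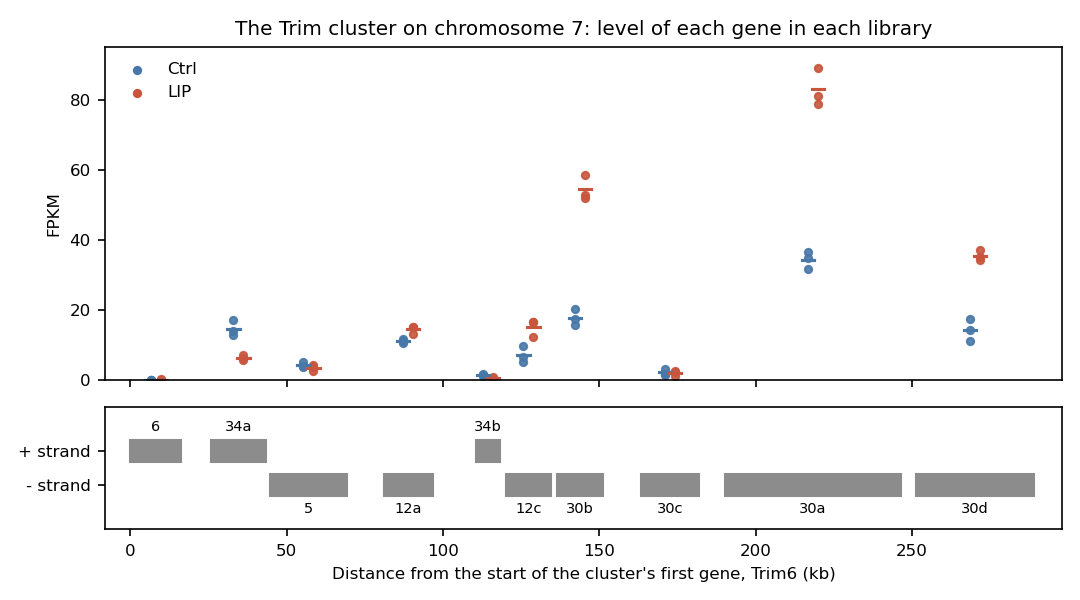
FPKM of each gene of the chromosome 7 cluster in each of the 6 libraries (upper panel, bars are group means) above the position of the genes in kb from the start of *Trim6* (lower panel, numbers name the *Trim* genes). The LIP points lie above the Ctrl points for 12a, 12c, 30b, 30a and 30d and below them for 34a and 34b on this scale, while of the 6 of these genes that were tested only *Trim30b* had a log2 fold change above 0 with the neutrophil scaling.

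*Trim12c* and *Trim12a* differed less. *Trim12c* (104338754 to 104353362) stood at 18.7, 24.5 and 35.6 CPM in Ctrl and at 55.4, 74.4 and 73.7 CPM in LIP. *Trim12a* (104299894 to 104315466) stood at 61.6, 66.9 and 59.2 CPM in Ctrl and at 105.6, 104.2 and 91.0 CPM in LIP. Neither gene overlapped between the groups. The log2 fold change was 1.37 with an SE of 0.23 for *Trim12c* (edgeR, adjusted p = 0.000644) and 0.68 with an SE of 0.12 for *Trim12a* (adjusted p = 0.000936). Under the neutrophil scaling they were -0.36 (adjusted p = 0.161) and -1.05 (adjusted p = 2.37e-05), so that *Trim12a* changed direction. *Trim12c* shares 8.05% of its 100-base stretches with other genes, mainly *Trim5*, and *Trim12a* 2.87%. *Trim5* itself did not pass the test, with a log2 fold change of 0.02 and an SE of 0.26 (edgeR, adjusted p = 0.961), and its sign turned with library totals and with the neutrophil scaling.

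*Trim34a*, an interferon-inducible relative of *Trim5* on the opposite strand (104244457 to 104262234), went the other way within the cluster. It stood at 42.5, 32.6 and 35.5 CPM in Ctrl and at 21.95, 19.3 and 17.9 CPM in LIP. Every LIP library was below every Ctrl library, and the log2 fold change was -0.90 with an SE of 0.18 (edgeR, adjusted p = 0.0021). *Trim34a* shares 21% of its 100-base stretches with *Trim34b*, so the split of reads between the pair is uncertain. *Trim34b*, just below the level for testing at 0.976 FPKM, had 194, 147 and 121 reads in Ctrl and 47, 81 and 43 in LIP. The pair summed to 39.4 CPM ± 5.57 in Ctrl and 20.9 ± 2.06 in LIP, and this sum, which does not depend on the split, was lower in every LIP library.

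The cluster's promoters are shown because interferon-inducible genes are known to carry an interferon-stimulated response element (ISRE), and because the members of the cluster moved apart. Promoters of 250 bases before and 50 bases after each start site were taken from RefSeq (GRCm38.p6), which gave 52 promoters for 39 of the 50 genes. They held no entry for *Trim11*, *Trim14*, *Trim16*, *Trim17*, *Trim3*, *Trim33*, *Trim35*, *Trim36*, *Trim55*, *Trim65* or *Trim8*. The ISRE core was searched as GAAANNGAA on both strands. It was found in 13 of the 52 promoters, or 25%, and in 8.56% of all 32851 promoters. Several of the 13 are near-identical copies within the cluster, so they do not count as independent promoters. The genes with a core were *Trim5*, *Trim12a*, *Trim12c*, *Trim30a*, *Trim30d*, *Trim34a* and *Trim34b* of the cluster and *Trim2*, *Trim7*, *Trim21*, *Trim25* and *Trim26* outside it. All matches of the cluster are shown, with *Trim25* and *Trim7* beside them as the outside genes whose CPM is given for every library. In these 10 stretches, 44 bases long and read in the direction of the gene, the core stands in capitals in its reverse form:
Trim30a, chr7:104465210-104465253, minus strand: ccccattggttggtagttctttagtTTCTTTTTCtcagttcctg
Trim30a, second start site, chr7:104446104-104446147, minus strand: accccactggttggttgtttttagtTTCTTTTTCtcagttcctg
Trim30d, chr7:104507871-104507914, minus strand: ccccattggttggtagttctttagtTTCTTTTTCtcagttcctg
Trim12a, chr7:104315466-104315509, minus strand: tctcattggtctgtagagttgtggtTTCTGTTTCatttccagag
Trim12c, chr7:104353359-104353402, minus strand: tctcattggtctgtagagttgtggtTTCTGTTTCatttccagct
Trim5, chr7:104288136-104288179, minus strand: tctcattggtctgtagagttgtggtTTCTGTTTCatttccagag
Trim34a, chr7:104244443-104244486, plus strand: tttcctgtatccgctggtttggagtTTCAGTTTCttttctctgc
Trim34b, chr7:104329235-104329278, plus strand: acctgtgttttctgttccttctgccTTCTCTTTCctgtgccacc
Trim25, chr11:88999369-88999412, plus strand: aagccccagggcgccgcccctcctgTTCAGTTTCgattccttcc
Trim7, chr11:48825998-48826041, plus strand: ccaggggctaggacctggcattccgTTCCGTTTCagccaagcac

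The stretches of *Trim30a* and *Trim30d* were identical in all 44 bases, as were those of *Trim12a* and *Trim5*, and *Trim12c* shared 42 of 44 with either. The core began 35 bases before the first listed start site of *Trim30a*, 40 before that of *Trim30d* and 48 before that of *Trim5*. The second *Trim30a* start site lies 19.1 kb inside the gene as the deposited table draws it. With the same 44 bases, *Trim12a* was called higher with TMM and *Trim5* was not called, a difference that was not tested itself. *Trim34a*, with a core 11 bases downstream of its start site, was lower. *Trim12a*, with its core at the same distance downstream of its RefSeq start site, was called higher. That RefSeq start site of *Trim12a* lies upstream of the gene start in the deposited table, so the equal distance rests on RefSeq. The core of *Trim12c*, called higher, began 28 bases before its start site and that of *Trim7*, called lower, 115 before. *Trim30b*, with the highest log2 fold change of the family, had no core in its RefSeq promoter, but that start site lies 11.2 kb inside the gene as the deposited table draws it, and the sequence at the table's own start was not used here. Of the 9 tested *Trim* genes with a core, 4 were higher, 2 lower and 3 not called with TMM, and under the neutrophil scaling 0 were higher. Of the 11 tested genes with promoters but no core, 1 was higher, 5 lower and 5 not called. The higher one was *Trim30b*, and among the lower ones *Trim28* has its RefSeq start site 25 kb inside the gene. *Trim3* and *Trim11*, both called higher with TMM, had no promoter entry and are in neither count. Of all 673 tested genes with a core, 33.6% were higher and 26.2% lower. A match describes letters in these stretches only, not a bound site.

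Of the 15 members known as regulators of innate signalling 10 were tested, and with TMM 1 rose and 4 fell, with a median log2 fold change of -0.53, while with the neutrophil scaling all 10 were lower, as were 9044 of all 10440 genes. The share that passed with TMM, 50%, was near the 53.6% of all genes tested. *Trim25*, which ubiquitinates the RNA sensor RIG-I, had, with *Trim8*, the highest FPKM of them in both groups. It stood at 147.2, 121.3 and 132.2 CPM in Ctrl and at 198.6, 138.9 and 175.9 CPM in LIP. The groups overlapped, and the log2 fold change of 0.36 with an SE of 0.14 did not pass (edgeR, adjusted p = 0.0582). *Trim8*, a regulator of NF-kappaB and cytokine signalling, stood at 81.0, 72.5 and 102.9 CPM in Ctrl and at 112.6, 96.3 and 121.6 CPM in LIP. Its groups overlapped as well, and its log2 fold change was 0.37 with an SE of 0.15 (edgeR, adjusted p = 0.066). Neither result was stable to the processing. DESeq2 gave adjusted p-values of 0.0161 for *Trim25* and 0.0229 for *Trim8*, scaling on library totals left log2 fold changes of 0.035 and 0.046 (edgeR, adjusted p = 0.85 and 0.814), and the neutrophil scaling turned both to lower, at -1.37 and -1.36. Leaving out 1 library also gave calls, for *Trim25* without Ctrl replicate 1 (adjusted p = 0.049) or LIP replicate 2 (adjusted p = 0.0163) and for *Trim8* without Ctrl replicate 3 (adjusted p = 0.0231).

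*Trim11*, an E3 ligase reported to limit interferon signalling and to act in protein quality control, stood at 36.5, 45.6 and 43.5 CPM in Ctrl and at 68.3, 62.3 and 77.5 CPM in LIP. The groups did not overlap, and its log2 fold change was 0.73 with an SE of 0.15 (edgeR, adjusted p = 0.00202) with TMM and -0.997 with the neutrophil scaling. *Trim35*, which acts on TRAF3 and IRF7 signalling, stood at 87.8, 63.3 and 73.5 CPM in Ctrl and at 34.2, 41.8 and 27.8 CPM in LIP. Every LIP library was lower, with a log2 fold change of -1.11 and an SE of 0.18 (edgeR, adjusted p = 0.000552). *Trim27*, *Trim14* and *Trim59* also fell, by 0.96, 0.90 and 0.68 on the log2 scale (edgeR, adjusted p = 0.000605, 0.00249 and 0.0203). For *Trim14*, an adaptor of the mitochondrial antiviral protein MAVS, 31.3% of the exon bases overlap *Nans* on the opposite strand, which was itself lower at -1.15, and reads of the 2 genes cannot be told apart without strand. *Trim59* passed in 3 of the 6 fits that left out 1 library, and its adjusted p was 0.0824 without Ctrl replicate 1, 0.0579 without Ctrl replicate 3 and 0.0508 without LIP replicate 2. Fitted without the limit on FPKM, its adjusted p was 0.0516. Of the rest, *Trim13* had a log2 fold change of -1.14 with an SE of 0.47 (edgeR, adjusted p = 0.0613), *Trim26* one of -0.39 and *Trim56* one of 0.28, and the neutrophil scaling turned *Trim56* to lower. Both *Trim13* and *Trim26* were called lower with library totals, at -1.47 and -0.71 (edgeR, adjusted p = 0.0214 and 0.00621). *Trim13* also passed without LIP replicate 1 (adjusted p = 0.036) and *Trim26* without LIP replicate 3 (adjusted p = 0.0347).

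**Figure D3:**
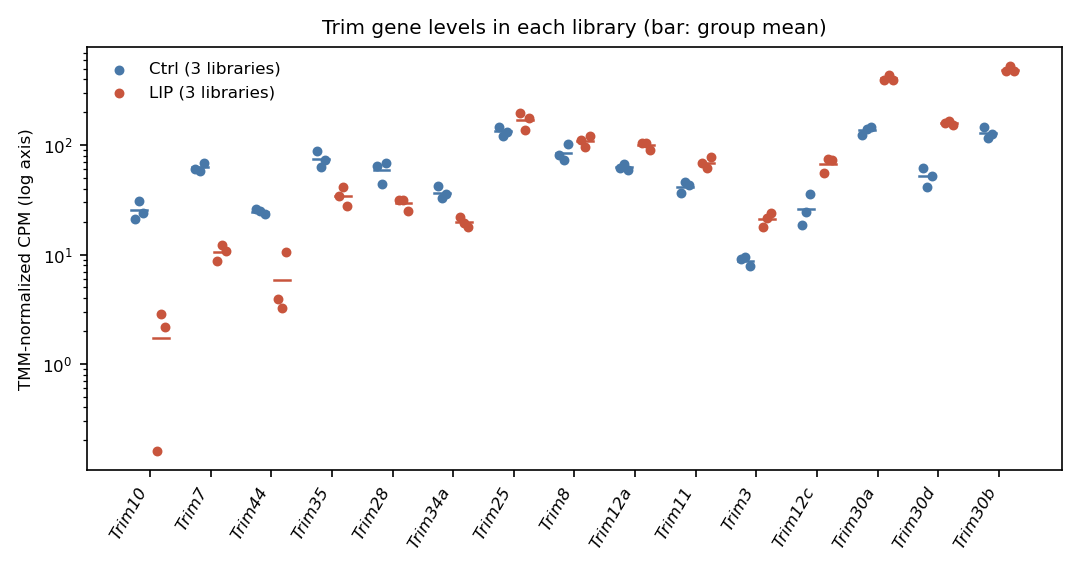
CPM after TMM normalization, on a log axis, of the 15 *Trim* genes described library by library, ordered by log2 fold change, with 3 points per group and a bar at the group mean. Only *Trim25* and *Trim8* overlap between Ctrl and LIP libraries among these 15, and the higher LIP levels at the right are relative to TMM scaling and were not called higher with the neutrophil markers.

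*Trim28*, or KAP1, is the co-repressor that KRAB zinc finger proteins use to silence endogenous retroviruses. It stood at 65.1, 43.8 and 68.2 CPM in Ctrl and at 31.6, 31.9 and 24.9 CPM in LIP. The groups did not overlap, and its log2 fold change was -1.003 with an SE of 0.19 (edgeR, adjusted p = 0.00154). *Trim33*, which binds SMAD proteins and chromatin, had a log2 fold change of 0.04 with an SE of 0.24, with a sign that turned in other fits, and *Trim24* was below the level for testing. *Trim3*, an NHL-repeat protein that also takes part in Toll-like receptor signalling, was the single tested member of its group. It stood at 9.02, 9.47 and 7.80 CPM in Ctrl and at 18.1, 21.8 and 23.8 CPM in LIP. It did not overlap between groups and had a log2 fold change of 1.27 with an SE of 0.23 (edgeR, adjusted p = 0.000934) with TMM and of -0.46 with the neutrophil scaling (adjusted p = 0.106).

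The 3 lowest log2 fold changes of tested members belonged to genes outside the chromosome 7 cluster and the list of innate signalling regulators. *Trim10*, which is known for its role in the maturation of red blood cells, stood at 21.1, 30.9 and 24.1 CPM in Ctrl and at 0.159, 2.86 and 2.16 CPM in LIP. LIP replicate 1 held 8 of its reads and the other two LIP libraries 146 and 102. The log2 fold change was -3.87 with an SE of 0.70 (edgeR, adjusted p = 0.00101), -3.33 without LIP replicate 1 and -4.46 without LIP replicate 2. All 10 tested erythroid markers were lower too, between -3.99 and -2.27, and their part in the result was not tested. *Trim58*, the other erythroid member, had at most 74 reads in any library.

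*Trim7*, a ligase known to bind glycogenin, stood at 61.1, 57.8 and 69.0 CPM in Ctrl and at 8.78, 12.3 and 10.7 CPM in LIP. The log2 fold change was -2.56 with an SE of 0.18 (edgeR, adjusted p = 1.73e-06), and the LIP libraries lay far below all Ctrl libraries. *Trim44*, which has a B-box and coiled coil but no RING finger, stood at 25.9, 24.8 and 23.6 CPM in Ctrl and at 3.92, 3.26 and 10.6 CPM in LIP. LIP replicate 3 was the highest of its group. The log2 fold change was -2.07 with an SE of 0.41 (edgeR, adjusted p = 0.0017) and -2.79 without that library. Beside these, the median log2 fold change was -2.50 over the 12 markers of B cells, -2.32 over the 12 of T cells and -2.96 over the 10 erythroid ones, and their part in both results was not tested. Of the other tested members, *Trim16* stood at 5.23, 1.19 and 5.62 CPM in Ctrl and at 8.06, 6.35 and 8.35 CPM in LIP, without overlap, and did not pass (log2 fold change of 0.92 with an SE of 0.51, edgeR, adjusted p = 0.15). *Trim62* had a log2 fold change of -0.94 (adjusted p = 0.135), which passed without LIP replicate 3 (adjusted p = 0.0232), and *Trim39* one of 0.22 (adjusted p = 0.415).

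The plot of 4 scalings shows what depends on the choice of reference. A scaling shifts all genes by nearly the same amount. The order of the *Trim* genes and their distance from the median of all genes are therefore kept by construction and test nothing. What changed was the place of zero, which shifted through the family.

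**Figure D4:**
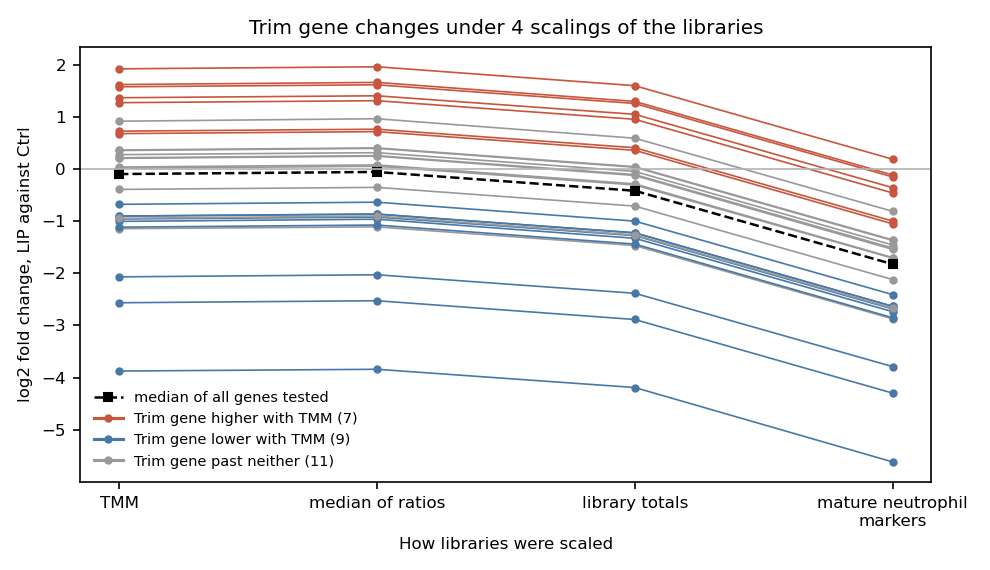
Log2 fold change of LIP over Ctrl (vertical axis) of the 27 tested *Trim* genes under 4 ways of scaling the libraries (horizontal axis), with the median of all genes tested as a dashed line. The lines run in parallel because a scaling shifts all genes by nearly the same amount. The 7 genes higher with TMM lie above the median under each scaling. With the neutrophil markers they lie around or below 0, with *Trim30b* at 0.19.

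Among the 23 members under 1 FPKM, no library had more than 638 reads of a gene, and 12 had at least 1 library at 0. *Trim34b* (0.976 FPKM) and *Trim21* (0.945 FPKM), the Fc receptor of the cytosol, lay just outside the limit, and *Trim62* (1.13) and *Trim16* (1.14) just inside. *Trim21* had 300, 204 and 152 reads in Ctrl and 281, 211 and 105 in LIP, which overlapped. Fitted without the limit, 16 of all 50 *Trim* genes passed, beside 15.9% of all genes, and both counts include genes above 1 FPKM. Of the 23 members under it, 1 passed. That gene was *Trim2*, an NHL-repeat ligase, with 59, 85 and 136 reads in the Ctrl libraries and 0 in all 3 LIP libraries (edgeR, adjusted p = 0.00763). Against a floor of 3 reads over the group it was, per library total, at least 97-fold lower in LIP, a bound that covers counting error only, and with 0 reads its absence is not shown. *Trim9*, a neuronal member, had 24, 0 and 38 reads in Ctrl and 143, 250 and 74 in LIP, without overlap but also without passing (edgeR, adjusted p = 0.163). *Trim34b*, *Trim36* and *Trim65* had fewer reads in every LIP library than in any Ctrl library and did not pass. *Trim15* and *Trim55* had reads in 1 Ctrl library (15 and 6) and none in LIP, and *Trim75* had 4 reads in 1 LIP library. The groups overlapped for the remaining members, which were *Trim6*, *Trim17*, *Trim23*, *Trim24*, *Trim32*, *Trim37*, *Trim41*, *Trim43a*, *Trim45*, *Trim46*, *Trim47*, *Trim58*, *Trim68* and *Trim71*.

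The genes that TRIM proteins work with were compared in 4 lists. Of 20 tested antiviral signalling partners, 6 were higher and 2 lower with TMM, with a median log2 fold change of 0.13, and 0 were higher and 18 lower with the neutrophil scaling. The share that passed with TMM was 40% in this list, 33.3% among the ubiquitin genes described next and 70% among the partners of *Trim28*, beside 53.6% of all genes tested. *Ifih1*, the RNA sensor MDA5, was higher at 1.33 with an SE of 0.24 (edgeR, adjusted p = 0.00111), and *Ddx58*, which encodes the *Trim25* target RIG-I, at 0.85 with an SE of 0.20 (adjusted p = 0.00433), and they were at -0.41 and -0.88 with the neutrophil scaling. *Irf7*, the interferon-induced transcription factor on which *Trim35* acts, was higher at 1.16 with an SE of 0.13 (adjusted p = 3e-05) and lower at -0.57 with that scaling. *Mavs* and the kinase gene *Ikbke* were lower, at -1.35 and -1.47 (edgeR, adjusted p = 0.000553 and 0.00266). *Ddx58* and *Irf7* fall outside the rule for named genes and were chosen after their values were seen. Of 21 tested genes for ubiquitin and its E1 and E2 enzymes, 4 were higher and 3 lower with TMM, with a median of 0.04, and all 21 were lower with the neutrophil scaling. *Ube2d1*, an E2 enzyme that many RING ligases use, fell by 0.86 on the log2 scale. *Ube2h* was higher at 0.66 with TMM and lower at -1.06 with the neutrophil scaling. Of 10 tested partners of *Trim28* in repression, 2 were higher and 5 lower with TMM and all 10 lower with the neutrophil scaling, among them *Chd3* at -1.80, *Hdac2* at -1.39 and *Cbx1* at -1.15. Of 2 tested relatives of the family with other names, *Mefv*, the gene of pyrin, was higher at 1.79 with an SE of 0.20 (edgeR, adjusted p = 3.49e-05; 0.06 with the neutrophil scaling) and *Pml*, the organizer of nuclear bodies, lower at -1.97 with an SE of 0.19 (adjusted p = 1.33e-05). Over the 4 lists, 24 of 53 tested genes passed with TMM and 50 with the neutrophil scaling, under which 9044 of all 10440 genes were lower.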

How the data were processed

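PB neutrophils were measured by Smart-seq2 in 3 Ctrl and 3 Lig (LIP) libraries, paired-end, grouped by the sample labels. The deposited table holds, for each gene, its raw read count and its FPKM value, which the authors derived from gene length and depth, with gene coordinates. The submitters' processing notes name cutadapt 1.9, FastQC and the build GRCm38. The aligner, the counting tool and the use of strand are not given in the sources used here, so reads shared by overlapping or near-identical genes may be split between them. PCR copies are counted as reads.

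Counts of the genes whose mean FPKM reached 1 were fitted with edgeR 4.0.16 (R 4.3.3; TMM, quasi-likelihood, no covariates), and p-values were adjusted over all 10440 genes. A gene was called at an adjusted p under 0.05. The fit was tested on simulated data. The common biological coefficient of variation was 0.265, and chi-square per gene was 51.9 to 126 between replicates, so no library was a duplicate. Alternatives were other scalings and filters, DESeq2 1.42.0, limma 3.58.1 on log2(FPKM + 1) and log2(FPKM + 0.1), a replicate block, and leaving out each library. Values in every library are given for members with a mean FPKM of at least 10, or called with an absolute log2 fold change of at least 1. Of each partner list, the 3 called genes with the largest absolute change are named, except for results not reported here. The members and lists were chosen with earlier results of these data known. Shared sequence was counted as 100-base stretches in GENCODE M21 transcripts.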

Additional observations from a re-analysis of the deposited data

How the results depend on the processing

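Between 14 and 21 of the tested *Trim* genes were called under every alternative, against 16 of 27. The number tested differed with the filter. Without one, 16 of 50 were called, with edgeR's own filter (filterByExpr) 17 of 44, and at a mean FPKM of at least 5, 14 of 16. Scaled on the mature neutrophil markers, the number called higher went from 7 to 0 and lower from 9 to 21, since it takes the rise of the markers off all genes, and the partner lists had 50 calls in place of 24. It reversed *Trim11* (-0.997), *Trim12a* (-1.05), *Trim12c* (-0.36), *Trim16* (-0.81), *Trim25* (-1.37), *Trim3* (-0.46), *Trim30a* (-0.15), *Trim30c* (-1.54), *Trim30d* (-0.11), *Trim33* (-1.70), *Trim39* (-1.51), *Trim5* (-1.71), *Trim56* (-1.46) and *Trim8* (-1.36). With library totals, limma with a pseudocount of 1 and limma with 0.1, genes near 0 reversed: *Trim30c* (-0.12, -0.063 and -0.093), *Trim33* (-0.28, -0.15 and -0.25), *Trim39* (-0.11, -0.055 and -0.065), *Trim5* (-0.30, -0.24 and -0.29) and *Trim56* (-0.045, -0.031 and -0.039). Limma split all genes into 1981 higher and 4271 lower, and 1865 and 4067, and with 0.1 it lost *Trim11* and *Trim12a*. *Trim13* and *Trim26* were called lower with library totals and in both limma fits, *Trim26* (-0.56) also at a mean FPKM of at least 5, and *Trim62* (-0.66) in limma with a pseudocount of 1. *Trim59* (-0.64) lost its call without a filter. The cause was not tested.

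Leaving out each library gave 16 to 18 calls, with 7 to 8 higher and 8 to 11 lower. *Trim30c* ranged from -0.038 to 0.61, *Trim33* from -0.077 to 0.20 and *Trim5* from -0.14 to 0.18. The calls of *Trim30a*, *Trim30b*, *Trim30d*, *Trim12a* and *Trim12c* held in all 6 of these fits.

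With a replicate block, 19 *Trim* genes were called, 9 higher and 10 lower, adding *Trim25*, *Trim26* and *Trim8*. Deviations of same-numbered libraries correlated by 0.0212, 0.0562 and 0.0364. Ctrl replicate 1 correlated with LIP replicate 3 by 0.0217, and all other differently numbered pairs were negative, down to -0.0504. Correlations this weak cannot show whether same-numbered libraries were paired, and the labels give only a number.

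Of the 23 members under 1 FPKM, 12 had a library at 0, which limits what can be said of those.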

Other observations

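*Trim40* and *Trim69*, left out because they were listed under transcript types other than protein coding, were barely measured. *Trim40* had 23 reads in LIP replicate 3 and 0 in the other libraries. *Trim69* had 35, 12 and 34 reads in the Ctrl libraries and 11, 29 and 10 in the LIP libraries, which overlapped.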
